A study of Ogataea haglerorum with 3 samples.

Results

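The genes lying 20 to 50 kb from a chromosome end of the yeast Ogataea haglerorum were examined for their messenger RNA levels. A gene's distance was taken from its edge farther from the nearer end, counting from base 1 on the left and from the end of the outermost annotated gene on the right. This position rule, which uses no expression value, gave 245 of the 5345 genes in the deposited table, spread over all 14 ends of the 7 chromosomes. The data came from 1 group of 3 libraries, labelled replicates 1, 4 and 5, of haploid cells of strain Phaff 81-453.3 in log phase. The cells had been diluted from a 16 h overnight culture and grown in YPD, a rich glucose medium, at 30 °C to an OD600 (optical density) of 0.8 to 1.2. Polyadenylated RNA was sequenced as single reads of 150 bases. No second strain or condition was analysed here, and the sources do not say whether separate cultures were used, so differences between libraries may be technical.

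In budding yeasts the regions next to the telomeres are known for low transcription and for genes that differ between strains. In Saccharomyces cerevisiae, chromatin proteins bound at the telomere silence nearby genes, an effect that fades with distance and differs from one chromosome end to another. Inward of the subtelomere the chromosome carries ordinary genes, and the stretch described here lies where that change can be looked for. The files give locus tags without gene names, so no function could be attached to any gene. Gene positions are those of the authors' annotation, whose genome build is not given in the sources used here.

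Library totals were 34047362, 44734719 and 34526996 counts for replicates 1, 4 and 5. Levels are given as the authors' TPM, which corrects counts for gene length and library size. With 1 group there is no contrast between samples, and genes are not replicates, so sets of genes are described by their medians, with the SD over the 3 libraries, and no p-value is attached. Below, a gene is called low under a mean of 5 TPM and active at a mean of 20 TPM or more. RNA from a whole culture cannot tell a low level in every cell from a higher level in few cells.

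Genes 20 to 50 kb from an end were a mixture of low and ordinary genes. Their median was 24.2 ± 1.73 TPM, against 55.5 ± 0.83 TPM for the 4489 genes over 100 kb from an end (SD, n = 3). It was 23.7 TPM in replicate 1, 26.2 TPM in replicate 4 and 22.8 TPM in replicate 5, so each library placed it below the lowest interior median of 54.6 TPM. On the log2(TPM + 1) scale the difference of medians was -1.17 ± 0.12, with the libraries between -1.25 and -1.03. The middle 50% of the genes spanned 1.38 to 71.4 TPM, against 25.1 to 129 TPM in the interior. Low genes numbered 88 of 245 (35.9%), while 571 of all 5345 genes were low (10.7%). Active genes numbered 127 (51.8%), against 76.5% of all genes, and 30 (12.2%) lay in between, against 12.5% in the interior. A level above the interior median of 55.3 TPM was reached by 76 of the 245 genes (31.0%). The 464 genes from 50 to 100 kb had a median of 54.9 ± 1.40 TPM, which differed from the interior by less than the spread between libraries, with 36 low (7.76%). The 147 genes within 20 kb of an end had a median of 1.89 ± 0.18 TPM, with 98 low (66.7%). The low share from 20 to 50 kb thus lay between those of the stretches on either side.

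The low genes were very low and the active ones close to ordinary. The 88 low genes had a median of 0.519 ± 0.107 TPM, against 1.44 ± 0.18 TPM for the 349 low genes of the interior. The 127 active genes had a median of 66.6 ± 1.35 TPM, against 76.0 ± 0.83 TPM for the 3579 active genes of the interior. In 82 of the 88 low genes every library was under 5 TPM, and in 124 of the 127 active genes every library was at 20 TPM or more, so the classes rarely depended on 1 library. Fewer than 10 counts in at least 1 library were found for 35 of the 245 genes (14.3%), beside 3.27% of all genes, and all 35 were low. Such counts were more frequent within 20 kb of an end, at 45 of 147 genes (30.6%). The SD over libraries was a median of 6.86% of the mean for active genes and 36.9% for low ones, whose lowest count was a median of 13.5. Counting error alone is large at that depth, and an order among the lowest genes cannot be read from it.

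In steps of 5 kb the share of low genes fell unevenly with distance. From 20 to 25 kb, 18 of 35 genes were low (51.4%) and the median was 4.64 ± 0.52 TPM. From 25 to 30 kb, 18 of 41 were low (43.9%) with a median of 15.4 ± 1.96 TPM. From 30 to 35 kb, 14 of 42 were low (33.3%) with a median of 12.7 ± 1.30 TPM. The next step, 35 to 40 kb, had 15 of 42 low genes (35.7%) at a median of 29.2 ± 1.55 TPM, and 40 to 45 kb had 14 of 44 (31.8%) at 31.5 ± 0.24 TPM. From 45 to 50 kb, 9 of 41 genes were low (22.0%), yet the median had reached 54.1 ± 1.47 TPM. From 50 to 55 kb, 3 of 52 were low (5.77%). Intermediate genes numbered 2 to 10 in each of the 6 steps from 20 to 50 kb. At the edges of the stretch, KL911_002297, just inside 20 kb, had 35.4 ± 6.0 TPM and KL911_002993, just outside, had 6.66 ± 1.18 TPM. KL911_001513, just inside 50 kb, had 17.1 ± 1.77 TPM and KL911_004147, just outside, had 24.8 ± 2.07 TPM.

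**Figure D1:**
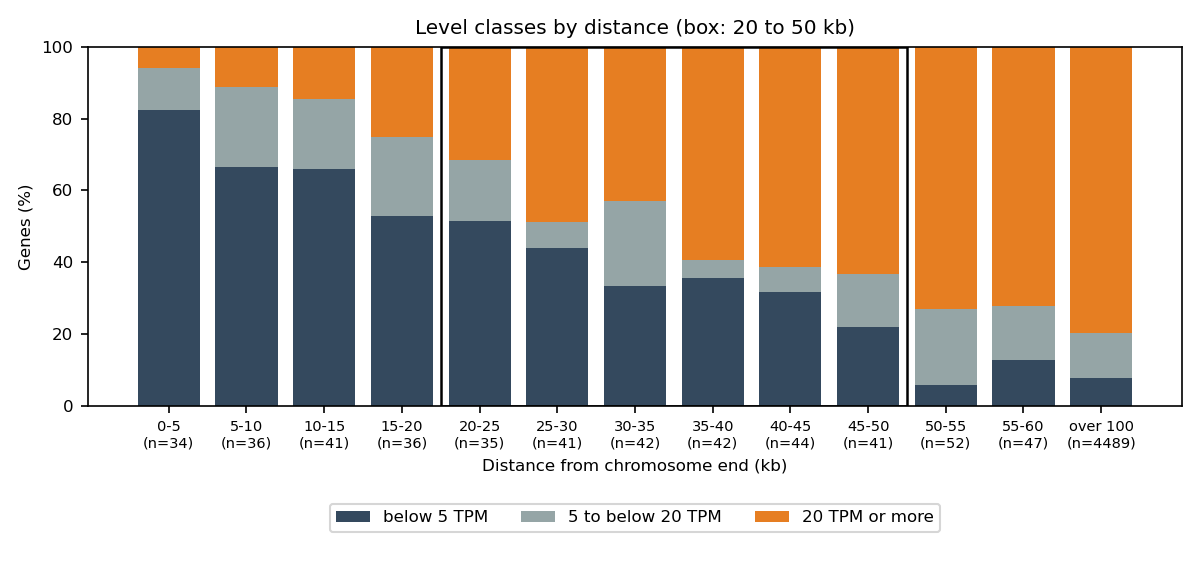
Share of genes (%) below 5 TPM, from 5 to below 20 TPM and at 20 TPM or more, by mean TPM over 3 libraries, in steps of 5 kb from the chromosome end and, at the far right, for the 4489 genes over 100 kb from an end. The box marks 20 to 50 kb, where the low share is 51.4% in the first step and 22.0% in the last, against 7.77% in the interior.

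The mixture separated when each chromosome end was taken on its own. At each end the genes within 100 kb were ordered by distance and split where 2 constant levels of log2(TPM + 1) left the least residual sum of squares, with at least 3 genes on each side. The distance midway between the genes at the split is called the switch. The split was chosen from these levels, so the levels on its sides describe the fit and are not a test of it. The switch lay 12.8 to 54.7 kb from the end, with a median of 31.1 kb. It fell within 20 to 50 kb at 10 of 14 ends, nearer the end at 3 and beyond at 1. At the left ends of chromosomes 2 and 3, counted among the 10, it lay close to an edge of the stretch. All genes of the stretch lay inside it on chromosome 2 and outside it on chromosome 3. The name "border zone" therefore describes only the rest of the 10 ends. Separate fits in each library gave the same split at 11 ends. The median over ends was 37.6 kb for left and 26.0 kb for right ends, whose true distances are longer by an unknown amount.

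**Figure D2:**
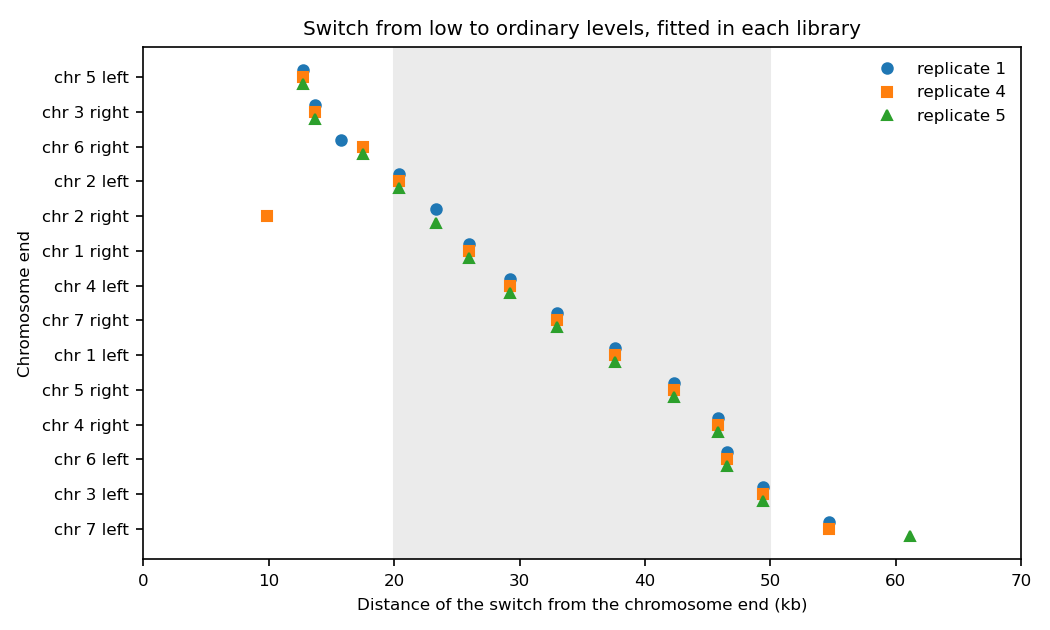
Distance of the switch from the chromosome end (kb) at the 14 ends, fitted separately in replicates 1, 4 and 5, with 20 to 50 kb shaded. The points of the 3 libraries coincide at 11 ends; replicate 4 moves the right end of chromosome 2 to 9.83 kb, replicate 1 the right end of chromosome 6 to 15.8 kb and replicate 5 the left end of chromosome 7 to 61.1 kb.

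The 7 ends with a switch up to 30 kb and the 7 with a later one differed in their gene levels between 20 and 50 kb. The later ends held 123 of the 245 genes, of which 74 were low (60.2%) and 30 active (24.4%), with a median of 2.33 ± 0.47 TPM. The earlier ends held 122 genes, of which 14 were low (11.5%) and 97 active (79.5%), with a median of 56.1 ± 0.92 TPM. By single ends, the later ones had medians of 0.249 to 11.6 TPM and the earlier ones 34.3 to 76.4 TPM, with no overlap. The same values set the switch, so this separation restates the fit. Within a chromosome the ends differed too. The switch lay 35.7 kb deeper on the left than on the right of chromosome 3, 29.0 kb deeper on the left of chromosome 6 and 21.7 kb deeper on the left of chromosome 7. On chromosome 5 it lay 29.6 kb deeper on the right. On chromosome 2 the ends differed by only 2.97 kb, with the right end deeper, but this depends on the rule. By the first of 3 successive active genes, the change there lay at 33.8 kb on the left and 24.9 kb on the right.

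**Figure D3:**
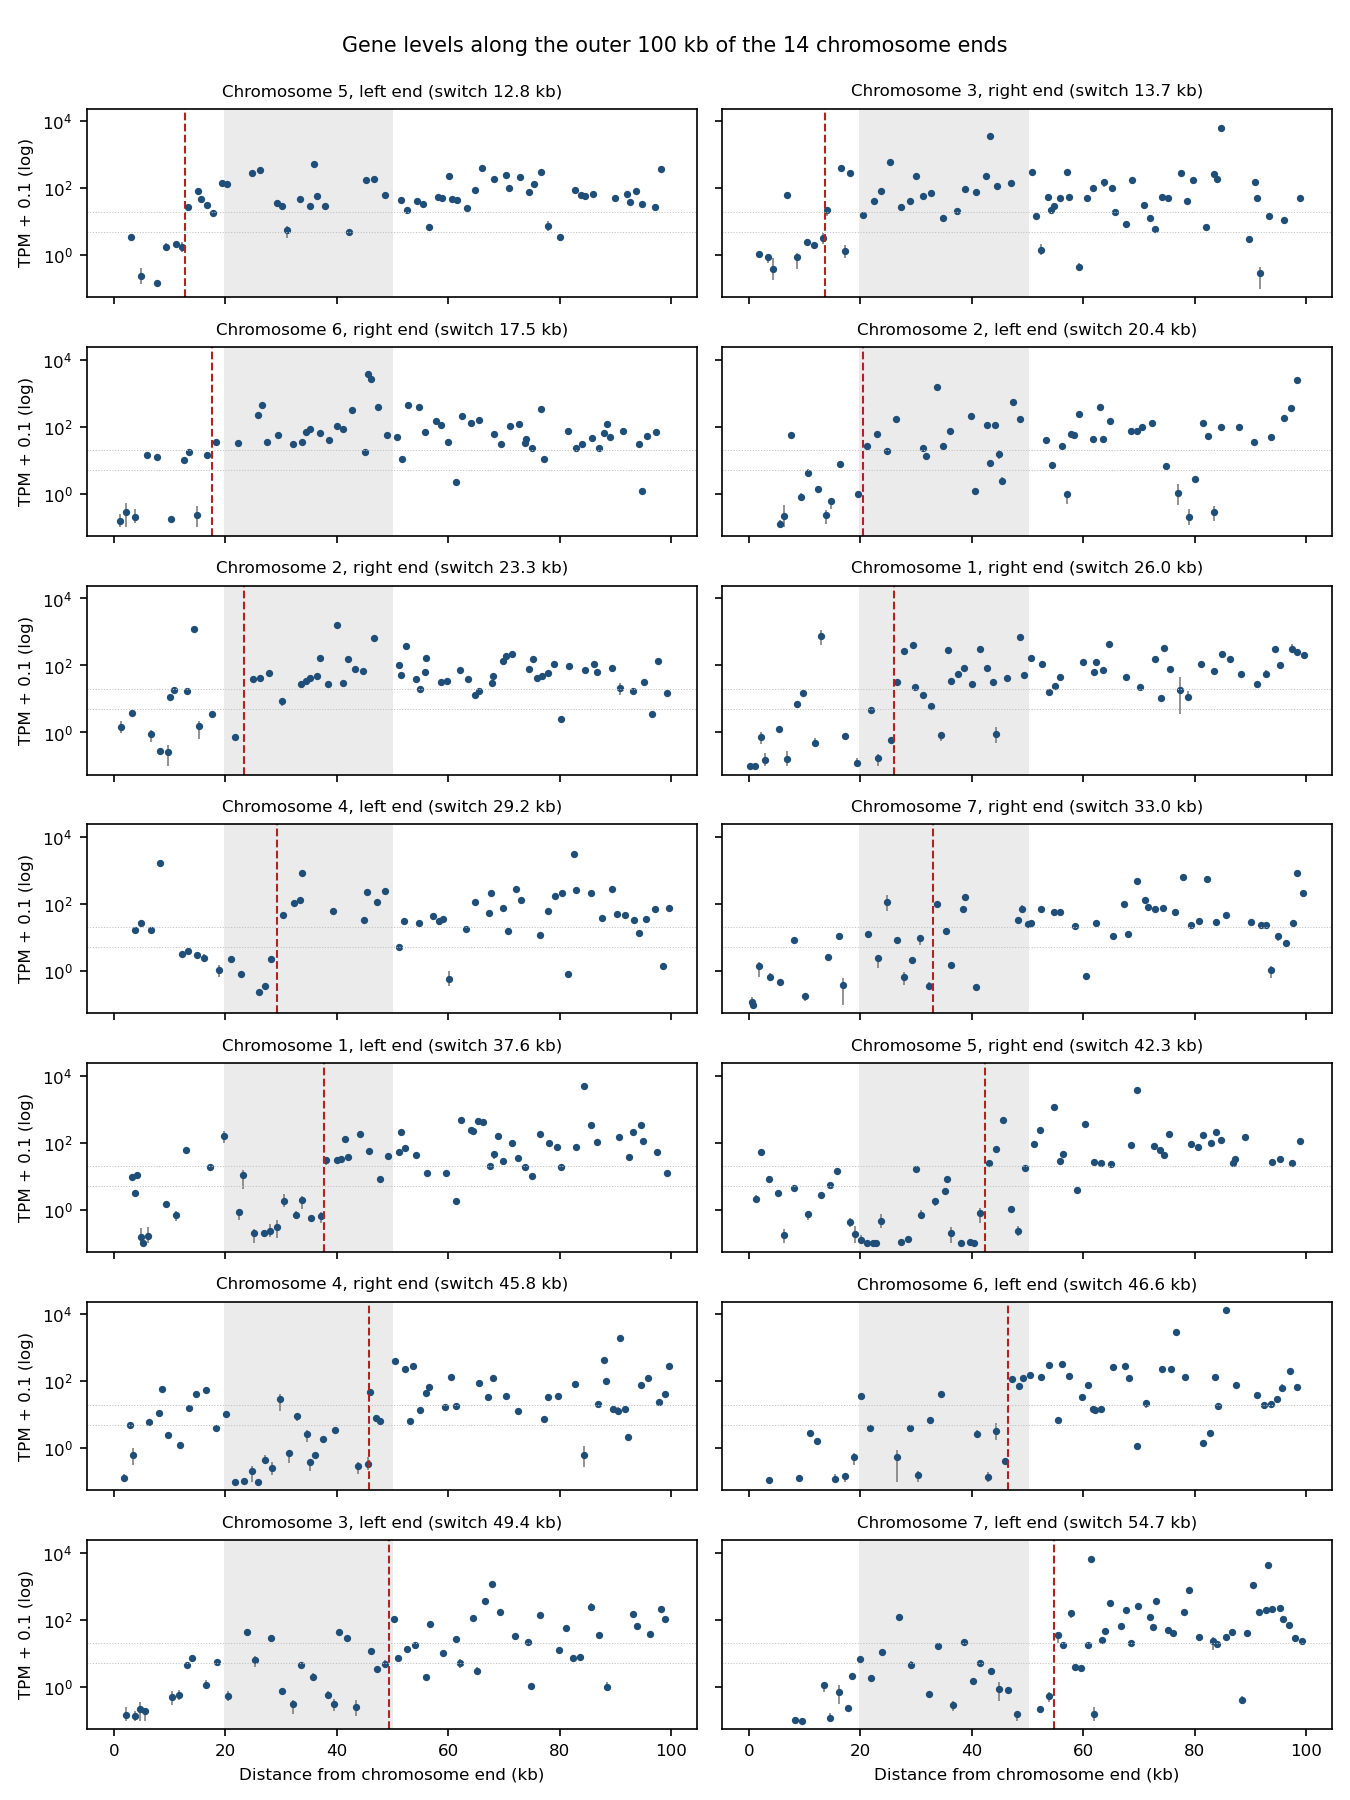
TPM of each gene (log axis, 0.1 added) against its distance from the chromosome end (kb) at the 14 ends, ordered by the distance of the switch (dashed line). Points are means of 3 libraries, vertical bars run from the lowest to the highest library, shading marks 20 to 50 kb, and dotted lines mark 5 and 20 TPM. Low genes fill most of the shaded stretch at the ends in the lower panels and are rare there in the upper ones.

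At 3 ends the stretch from 20 to 50 kb was already ordinary. The left end of chromosome 5 switched at 12.8 kb, the right end of chromosome 3 at 13.7 kb and the right end of chromosome 6 at 17.5 kb. On chromosome 5 the genes at the switch were KL911_005328 at 1.71 ± 0.64 TPM outside and KL911_005327 at 28.1 ± 3.04 TPM inside. On chromosome 3 they were KL911_004113 at 3.22 ± 1.15 TPM and KL911_004112 at 22.7 ± 6.65 TPM, and on chromosome 6 KL911_004443 at 13.9 ± 1.62 TPM and KL911_004442 at 35.7 ± 1.56 TPM. Taken instead as the first of 3 successive active genes, the change on the right of chromosome 3 lay at 22.4 kb, within the stretch. Their 51 genes between 20 and 50 kb had a median of 68.8 ± 0.82 TPM, with 46 active (90.2%) and 1 low. On the right of chromosome 6, 18 of 19 genes were active and the lowest had 18.1 TPM. On the right of chromosome 3, 15 of 17 were active and the lowest had 13.1 TPM. On the left of chromosome 5, 13 of 15 were active, and the low gene was KL911_005310 at 4.69 ± 0.60 TPM (SD, n = 3).

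At 4 ends the switch came between 20 and 30 kb. At the left end of chromosome 2 it lay at 20.4 kb, between KL911_000564 at 0.892 ± 0.194 TPM, which lies just outside 20 kb, and KL911_000565 at 26.7 ± 3.19 TPM. The first of 3 successive active genes at this end came only at 33.8 kb. On the right of chromosome 2 it lay at 23.3 kb, between KL911_002655 with a mean of 0.654 ± 0.084 TPM and KL911_002654 with 40.7, 35.7 and 42.8 TPM. That switch is poorly fixed, since replicate 4 alone placed it at 9.83 kb, levels in CPM (counts scaled to library size) at 11.9 kb, and splits from 9.83 to 25.6 kb left a residual sum of squares within 5% of the least. On the right of chromosome 1 it lay at 26.0 kb, between KL911_002681, at 930157 to 931812 on the minus strand, and KL911_002682, at 929061 to 930143 on the plus strand. KL911_002681 had 0.628, 0.490 and 0.434 TPM in replicates 1, 4 and 5, and KL911_002682, which converges with it, had 31.0, 31.7 and 31.0 TPM. At the left end of chromosome 4 it lay at 29.2 kb, between KL911_004897 at 2.23 ± 0.59 TPM and KL911_004898 at 46.6 ± 4.67 TPM, and was followed by a run of 9 active genes to 48.6 kb with a median of 119 ± 15.4 TPM.

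At 6 ends the switch came between 30 and 50 kb. At 5 of them at least 4 successive low genes stood together within the stretch; the right end of chromosome 7, with 6 low, 4 intermediate and 6 active genes, had no such run. On the right of chromosome 7 it lay at 33.0 kb, between KL911_004138 with 0.168, 0.270 and 0.366 TPM in replicates 1, 4 and 5 and KL911_004139 with 102, 94.8 and 108 TPM. The neighbours are divergent and differed by 6.34 on the log2(TPM + 1) scale. At this end the first of 3 successive active genes came only at 48.3 kb. On the left of chromosome 1 it lay at 37.6 kb, after 9 successive low genes from 25.1 to 37.2 kb with a median of 0.422 ± 0.103 TPM, and was followed by 7 successive active genes with a median of 38.3 ± 3.34 TPM. The last low gene, KL911_004470, had 0.557, 0.771 and 0.308 TPM in replicates 1, 4 and 5. The first active gene, KL911_004471, on the same strand, had 34.7, 32.3 and 21.5 TPM. Alone among the 7 ends that switched beyond 30 kb, it had no active gene outside the switch and no low gene inside it between 20 and 50 kb.

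The right end of chromosome 5 had the lowest levels of the 14 ends, with 17 of its 23 genes from 20 to 50 kb low and a median of 0.249 ± 0.058 TPM. Of the 7 genes of this stretch without a count in any library (2.86% of 245, beside 0.299% of all genes), 5 lay here and the others, KL911_005266 and KL911_005263, on the right of chromosome 4. Nearer than 20 kb to an end, 5 of 147 genes also had no count. KL911_001532, KL911_001533 and KL911_001534 stood side by side at 1224137 to 1226811 on the minus strand. KL911_001520 and KL911_001522 flanked KL911_001521, which had 1 count in replicate 5 and 0 in the other libraries. A count of 0 allows up to 3 counts per library, which for these genes is 0.0430 to 0.154 TPM depending on length and library. Reads that fit a near-identical copy would not be counted, as no option for multiply mapped reads was set, so the level of a gene with such a copy is uncertain. The switch lay at 42.3 kb, between KL911_001519 with 0.308, 1.06 and 0.741 TPM in replicates 1, 4 and 5 and KL911_001518 with 23.7, 27.0 and 21.5 TPM. Within the low stretch KL911_001528 stood apart at 16.9 TPM, and inside the switch KL911_001516 reached 484 TPM; both were picked after their values were seen.

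The switch lay at 45.8 kb on the right of chromosome 4 and at 46.6 kb on the left of chromosome 6. On the right of chromosome 4 only 2 of 20 genes were active, and 14 were low, of which 13 stood in runs of 6 and 7 parted by 3 genes. The flanking genes were KL911_005251 with 0.453, 0.119 and 0.173 TPM in replicates 1, 4 and 5 and KL911_005250 with 49.2, 40.5 and 50.8 TPM. They converge, with their ends 3 bases apart. Further inward the next 2 genes had 8.20 and 6.53 TPM, and the first of 3 successive active genes came only at 65.6 kb. On the left of chromosome 6, KL911_002287 had 0.258, 0.407 and 0.294 TPM and its divergent neighbour KL911_002286 had 115, 117 and 120 TPM. The jump of 6.49 on the log2(TPM + 1) scale between them was the largest at any switch, and the first 6 genes inside were all active.

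The latest changes were at the left ends of chromosomes 3 and 7. On the left of chromosome 3 the fit gave 49.4 kb, between KL911_000531 at 4.74 ± 1.31 TPM and KL911_000530 at 110 ± 4.03 TPM, which lies just outside 50 kb. The first of 3 successive active genes there came at 66.6 kb. Splits over a span of 16.3 kb were within 5% of the least residual. This was the only end where a straight line in distance left less residual variance than a step, whose split was searched for. At the left end of chromosome 7 the switch lay at 54.7 kb, so its 14 genes from 20 to 50 kb all lay outside it. Of these, 9 were low, 3 intermediate and 2 active, with a median of 2.32 ± 0.15 TPM. The genes at that switch were KL911_003009 at 0.433 ± 0.161 TPM outside and KL911_003010 with 40.2, 43.0 and 21.0 TPM in replicates 1, 4 and 5 inside. On the left of chromosome 7 the first of 3 successive active genes came at 63.3 kb.

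The genes next to the switches were lined up over the ends. At 13 of 14 ends the last gene outside was low and the first gene inside active; at the right end of chromosome 6 the last gene outside had 13.9 TPM. Over the ends, the last gene outside had a median of 0.679 TPM and the first inside 35.2 TPM. Going further inward the medians of the next 2 genes were 51.9 and 53.7 TPM, and going outward those of the next 2 were 1.19 and 1.78 TPM. The first gene inside was active at all 14 ends and the next at 10. The split is placed where such a pair of neighbours lies, so these flanking levels follow in part from the fit and do not measure how abrupt the change is. The step in mean log2(TPM + 1) was 3.19 to 4.80, and it accounted for 23.6% to 58.4% of the variance, with a median of 40.6%. A straight line accounted for 4.52% to 41.4%. The split was searched for and the line was not, so this comparison does not measure how sharp the change is. A split is found in any series of values, so the same fit was made in the 70 full stretches of 100 kb in the interior. There the step was a median of 1.51 in either direction and accounted for a median of 7.77% of the variance. It reached the smallest step of any chromosome end in 2 of the 70 and the smallest share of variance in 1. Those 2 steps had only 3 and 4 genes on their shorter side. More genes are low near the ends than in the interior, so a gradual decline would also give larger steps there. The comparison therefore cannot tell an abrupt change from a gradual one at the ends. The range of splits within 5% of the least residual was a median of 2.68 kb wide and at most 16.3 kb.

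**Figure D4:**
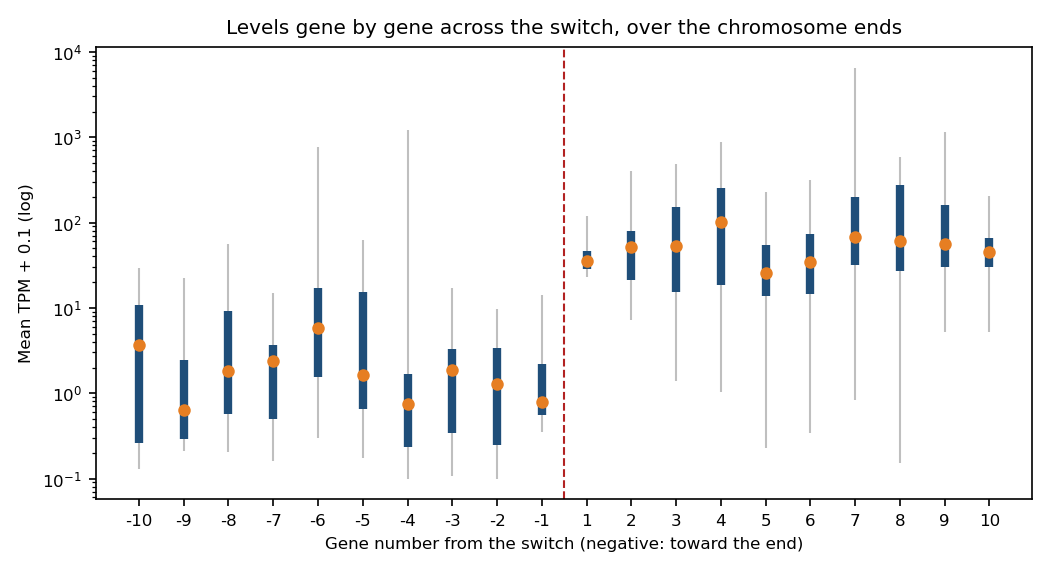
Mean TPM (log axis, 0.1 added) of the 10 genes outside and the 10 inside the switch, lined up over 12 to 14 chromosome ends. Orange points are medians, thick bars the middle 50% and thin lines the full range; the median is 0.679 TPM for the last gene outside and 35.2 TPM for the first gene inside. Medians run from 0.528 to 5.64 TPM outside and from 25.8 to 102 TPM inside. The switch was placed from these values.

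Split by the switch of their own end, the genes of this stretch fell into 103 outside and 142 inside. Those outside had a median of 0.778 ± 0.074 TPM, with 79 low (76.7%) and 10 active. Those inside had a median of 57.1 ± 0.44 TPM, with 9 low (6.34%) and 117 active (82.4%), which is level with the interior median of 55.5 ± 0.83 TPM and its 7.77% of low genes. All 5 genes over 1000 TPM (2.04% of 245, beside 3.35% of all genes) lay inside. The switches were placed from these same levels, so the contrast between outside and inside in part restates the fit.

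The highest levels belonged to short genes on the right arms of chromosomes 6 and 3. KL911_004426 (chromosome 6, 1466729 to 1467193, plus strand) had 3838, 3759 and 4105 TPM in replicates 1, 4 and 5. Its divergent neighbour KL911_004425, at 1466193 to 1466486 and 242 bases away, had 2667, 2655 and 2983 TPM. Both were highest in replicate 5, and the libraries differed by little. On the other side of KL911_004426, KL911_004427 converges with it at a distance of 43 bases and had 18.3, 18.1 and 17.8 TPM. This rise of 7.68 on the log2(TPM + 1) scale was the steepest between a gene of the stretch and its inner neighbour. KL911_004094 on chromosome 3, at 1266237 to 1266560, had 3463, 3596 and 3819 TPM, and its divergent and convergent neighbours had 226 and 119 TPM. KL911_002644 on the right of chromosome 2 had 1646 ± 143 TPM and KL911_000571 on the left of chromosome 2 had 1525 ± 55 TPM, each beside genes under 31 TPM. The remaining 5 of the 10 highest genes spanned 561 to 876 TPM.

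Low genes between active ones were few. Only 4 genes were low with an active gene on each side (1.63% of 245, beside 3.43% of all genes with a neighbour on both sides). As a share of low genes this was 4 of 88 (4.55%), against 159 of 349 in the interior (45.6%). However, 79 of the 88 lay outside the switch of their end, among genes that were mostly low. Among the 9 low genes inside a switch, 4 lay between active genes. A low neighbour was present for 72 of the 88 low genes (81.8%), against 118 of 349 in the interior (33.8%). Both neighbours were low for 43 (48.9%), against 34 in the interior (9.74%). Low genes made up 35.9% of all genes here and 7.77% in the interior, so higher shares are due from that alone. Whether low genes stood together beyond that was not tested. Runs of at least 4 successive low genes numbered 11 and held 60 of the 88, and the longest, 10 genes on the left of chromosome 4, began outside 20 kb and held 5 of them. The count of 4 depends on the threshold for the neighbours, being 10 at 10 TPM and 1 at 50 TPM.

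The 4 genes all lay inside the switch of their end. KL911_004144 (chromosome 7, 921081 to 922772, plus strand) had 0.235, 0.233 and 0.266 TPM in replicates 1, 4 and 5, between neighbours at 160 and 34.3 TPM. These levels rest on 13, 17 and 15 counts. KL911_000575 (chromosome 2, 39828 to 40499, minus strand) had 1.00, 0.966 and 1.34 TPM between neighbours at 206 and 110 TPM, and converges with the outer neighbour at a distance of 11 bases. KL911_002697 (chromosome 1, 911272 to 911760, plus strand) had 0.375, 0.711 and 1.41 TPM between neighbours on the minus strand at 32.8 and 41.6 TPM. Its counts were 6, 15 and 23. KL911_005310 (chromosome 5, 38463 to 42125, plus strand) had 4.63, 5.32 and 4.13 TPM between neighbours at 30.3 and 178 TPM, and replicate 4 alone would not call it low. The other 5 low genes inside a switch, on chromosomes 1, 2, 5 and 7, each had an intermediate or low gene on at least one side.

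The reverse, an active gene with a low gene on each side, was found for 3 genes (1.22% of 245, beside 0.394% of all genes with a neighbour on both sides), each outside the switch of its end. KL911_002297 on the left of chromosome 6, at 18991 to 20016 and the outermost gene of the stretch, had 37.1, 40.4 and 28.8 TPM in replicates 1, 4 and 5 between neighbours at 0.439 and 4.02 TPM. KL911_003001 on the left of chromosome 7, at 36671 to 38515, had 23.0, 21.8 and 22.8 TPM between neighbours at 0.198 and 1.38 TPM; it was picked after its values were seen. The outer neighbour lies 1 base away on the opposite strand and converges with it. KL911_005260 on the right of chromosome 4, at 1255097 to 1256440, had 32.9, 40.8 and 13.2 TPM between neighbours at 0.162 and 0.613 TPM, and its level in replicate 5 lay under 20 TPM. The highest active genes outside a switch, chosen here after their values were seen, were KL911_002996 on the left of chromosome 7, with 130, 150 and 92.0 TPM, and KL911_004133 on the right of chromosome 7.

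**Figure D5:**
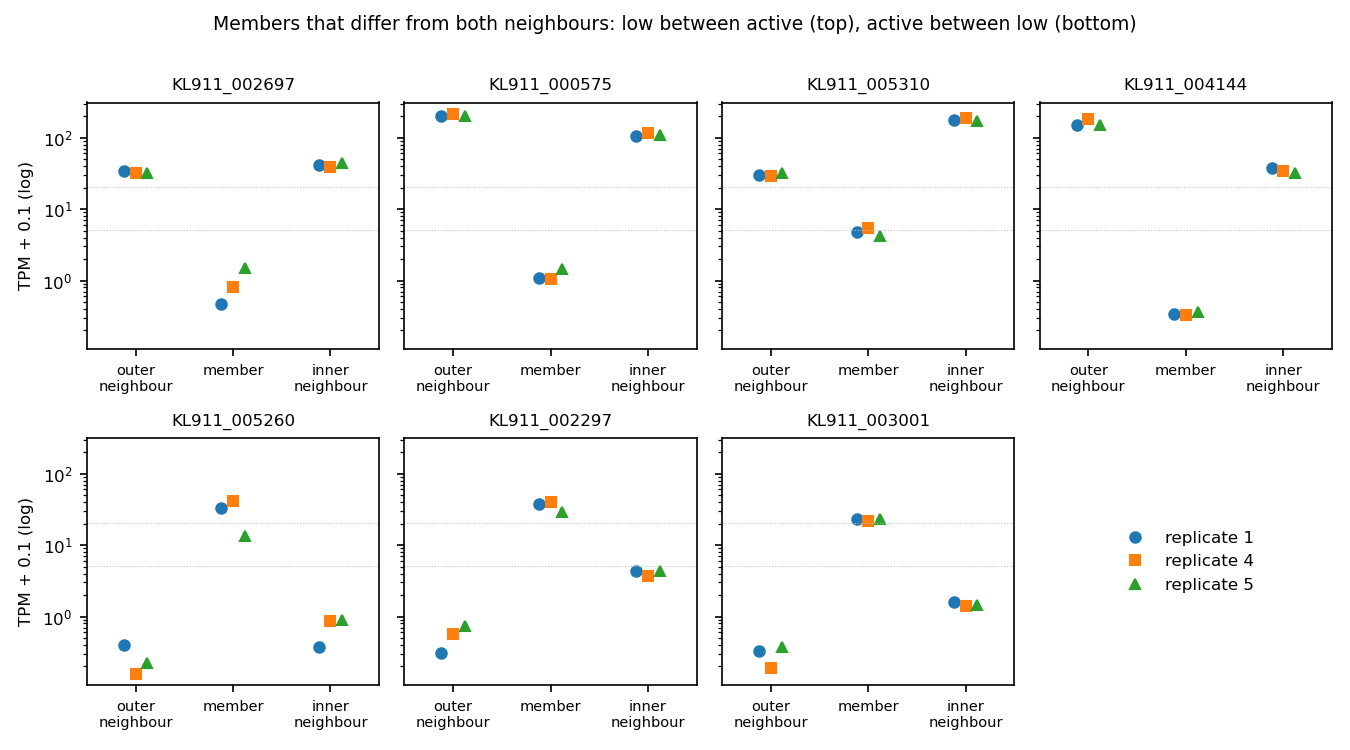
TPM (log axis, 0.1 added) in replicates 1, 4 and 5 of the 4 low genes between active neighbours (top) and the 3 active genes between low neighbours (bottom), each with its outer and inner neighbour; dotted lines mark 5 and 20 TPM. In every library each gene stands apart from both neighbours, and KL911_005260 is lowest in replicate 5.

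Levels of adjacent genes were more strongly correlated in rank here than in the interior, which does not mean that they were closer. Spearman rho between adjacent genes was 0.557 ± 0.017 over 231 pairs, against 0.113 ± 0.004 over 4482 pairs in the interior (SD, n = 3 libraries). This is a description across genes of the same libraries, and runs on either side of a switch enter it directly. Both genes were low in 55 pairs (23.8%), against 76 in the interior (1.70%), and both active in 91 (39.4%), against 2924 (65.2%). A low gene stood beside an active one in 32 pairs (13.9%), against 443 (9.88%). By orientation rho was 0.594 for 65 divergent, 0.570 for 103 tandem and 0.504 for 63 convergent pairs.

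The share of low genes was alike in both directions of transcription. The 121 genes transcribed away from the chromosome end had 43 low genes (35.5%) and a median of 26.0 ± 1.19 TPM. The 124 transcribed toward the end had 45 low genes (36.3%) and a median of 21.1 ± 0.80 TPM, lower in all 3 libraries. Plus-strand genes had a median of 23.4 ± 1.00 TPM, against 24.4 ± 2.28 TPM on the minus strand, a difference within the spread between libraries. Left ends had 45 low genes of 111 (40.5%) and right ends 43 of 134 (32.1%), and the log2 difference from the interior was -1.84 ± 0.19 on the left and -0.87 ± 0.06 on the right. These SDs are over libraries and not over ends. Medians of single ends overlapped, at 2.32 to 57.8 TPM on the left and 0.249 to 76.4 TPM on the right.

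The low genes of this stretch were not short. Their median length was 1491 bases, against 1022 bases for low genes of the interior, while active genes had 1244 bases here and 1179 bases in the interior. A length that is a multiple of 3, as a coding gene without an intron or untranslated part has, was found for 77 of the 88 low genes (87.5%), against 260 of 349 low genes of the interior (74.5%). Among active genes it was 89.8% here and 88.9% in the interior. Whether the gene models are right was not tested.

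Only 3 genes of this stretch were called as varying between libraries, though at a higher share than over all genes. Of 145 with a mean of at least 10 CPM, 3 exceeded counting error by a chi-square test with Benjamini-Hochberg adjustment over all tested genes and differed at least 2-fold (2.07%, beside 0.633% of the 4578 genes tested). All 3 lay outside the switch of their end, and all were highest in replicate 4 and lowest in replicate 5, as 23 and 25 of the 29 such genes in the genome were. Among genes within 20 kb of an end, 2 of the 40 tested were called (5%). KL911_004133 (chromosome 7, 937158 to 938447, minus strand) had 4515, 10506 and 2601 counts in replicates 1, 4 and 5, or 107, 189 and 60.4 TPM. KL911_004137 (chromosome 7, 931218 to 932300, minus strand) had 392, 572 and 209 counts. KL911_005260, the active gene among low ones on chromosome 4, had 1444, 2363 and 591 counts. Its highest CPM was 3.12-fold its lowest, while its neighbours stayed under 1 TPM in every library. The count rests on replicate 5, since 0 genes of the stretch and 5 of all genes were called without it, on replicate 4, since 1 gene of the stretch and 10 of all genes were called without it, and on the minimum of 10 CPM, since at 1 CPM 13 of 192 were called (6.77%, beside 1.92% of all genes).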

How the data were processed

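The deposited counts come from featureCounts 2.0.1, per the file headers, run on gene features of an annotation of the authors with strand setting 1 and no option for multiply mapped reads. HISAT2 2.2.1, HTSeq, SAMtools and deepTools are named in the submitters' processing notes, with no role given. The deposited TPM are the authors' own; the gene IDs are locus tags. Joint and single-library files held the same 5345 counts per library, and 0 per-sample columns were left unused.

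From these files, distances, medians, neighbours and switches were computed in Python 3.11.15 (pandas 2.3.3, scipy 1.17.1, numpy 2.4.6, figures with matplotlib 3.10.9). Median levels were compared as log2(TPM + 1), a scale that shrinks the differences of low genes. CPM used TMM scaling from edgeR 4.0.16 in R 4.3.3, with DESeq2 1.42.0 size factors as an alternative. The step fit and the chi-square test of counts were run on simulated data, with normal noise and Poisson counts, as a check of the code. These runs do not measure how either performs at the spread found in these data. A count of 0 allows 0.0881, 0.0671 and 0.0869 CPM in replicates 1, 4 and 5 (3 counts); floors cover counting error only.

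Genes, thresholds and tests were chosen with earlier results of these data known. Genes named are those flanking each switch, the 10 highest and 10 lowest of the stretch, low genes between active ones, those varying between replicates and the steepest rise. Genes at the edges of the stretch, active genes between low ones and those marked as picked after their values were seen are further ones. The lowest are given by count and range, and the interior fits of a step were added after the switches were seen.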

Additional observations from a re-analysis of the deposited data

How the results depend on the processing

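No paired analysis was possible because there is 1 group. Leaving out 1 library gave a level difference from the interior of -1.23 to -1.12, 87 to 89 low genes, a median switch of 31.1 kb, 10 ends with a switch at 20 to 50 kb, 4 to 5 low genes between active ones and 0 to 2 genes varying between replicates. The level difference kept its sign under all 12 alternatives. It was -1.0 with distance from gene midpoints, -1.84 and -0.87 at left and right ends alone, -0.94 with a pseudocount of 10, -0.81 among genes with 10 counts or more in each library, and -1.42 in CPM under both TMM and median-of-ratios scaling, which carry no length correction. Low genes numbered 45 and 43 at left and right ends alone and 53 among genes with 10 counts or more, fewer by construction. The median switch was 30.4 kb from midpoints, 35.9 kb by the first of 3 successive genes at 20 TPM and 30.4 kb by the first of 5 with a median of 20 TPM. Under 12 alternatives, 7 to 10 ends switched at 20 to 50 kb. By the first of 3 successive genes at 20 TPM, the switch was at 33.8 kb on the left of chromosome 2 and at 22.4 kb on the right of chromosome 3. By that rule it was at 65.6 kb on the right of chromosome 4 and at 48.3 kb on the right of chromosome 7. The left ends of chromosomes 3 and 7 then switched at 66.6 and 63.3 kb. The right end of chromosome 2 was at 9.83 kb with a pseudocount of 0.1, 13.7 kb with one of 10 and 11.9 kb in CPM. It kept its switch within 1 kb under 5 of these 12, the right end of chromosome 4 under 7 and the other ends under 8 to 11. Low genes between active ones numbered 2 at left and 2 at right ends, 10 with neighbours at 10 TPM, 1 at 50 TPM and 7 by the median of 2 genes on each side. Genes varying between replicates numbered 13 at 1 CPM (6.77%, beside 1.92% of all genes tested), 1 at 50 CPM (1.1%, beside 0.43%), 8 at a ratio of 1.5 (5.52%, beside 3.8%) and 122 without a minimum ratio (84.1%, beside 81.4%), the last near the share over all genes. Depth limits the low genes most: 35 had under 10 counts in a library.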

Other observations

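The stretch from 20 to 50 kb was packed much like the rest of the genome. It held 5.93 genes per 10 kb, against 6.12 in the interior and 6.07 within 20 kb of an end, and genes covered 84.1% of its bases, against 87.2% in the interior. The median distance between adjacent genes was 134 bases, against 112 bases in the interior, and it was 127 bases where both genes were low and 130 bases where both were active. In the interior these were 162.5 and 110 bases. The widest gap was 4872 bases, and 0 adjacent pairs overlapped.

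All 245 genes matched a locus tag of the ASM1920728v1 assembly with equal length, and all 231 adjacent pairs were adjacent there. Within 20 kb of an end, 138 of 147 genes had equal length (93.9%) and 125 of 133 pairs were adjacent (94.0%). The authors' IDs are locus tags of that assembly, so this is no independent check of the gene models.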
